A study of Mus musculus with 8 samples.

Results

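Sod1, Sod3, Cat and Txn1 encode 2 superoxide dismutases, catalase and thioredoxin, 4 of the 50952 genes in a table of RNA levels from subcutaneous white adipose tissue, the fat beneath the skin, of mice fed at will or calorie restricted. They were chosen by gene symbol with their difference between the diets already known, so their values in that contrast are given as a description, with no test. The animals were wild-type C57BL/6J mice. One group ate ad libitum (AL). The other was calorie restricted (CR) from an age of 3 months and for 6 months, and tissue was taken at 9 months of age. Neither sex nor the degree of restriction is given in the sources used here. The labels list 8 mice, 4 per diet, as biological replicates, while the table analysed here held 3 AL libraries (AL2, AL3 and AL4) and 4 CR libraries (CR1 to CR4). Whole-tissue RNA was sequenced, so fewer cells of a type and less RNA per cell cannot be told apart. The study asked how restriction alters gene expression and splicing in this depot. The comparison below takes from it the levels of a few antioxidant genes.

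Superoxide leaks from the mitochondrial respiratory chain and is made by NADPH oxidases, and superoxide dismutases turn it into hydrogen peroxide. Sod1 encodes the copper- and zinc-dependent enzyme of the cytosol and mitochondrial intermembrane space, and Sod3 the related enzyme that cells secrete and that binds heparan sulfate in the matrix and on vessel walls. Cat encodes catalase, a haem enzyme of peroxisomes that breaks down hydrogen peroxide, much of which arises there during fatty acid oxidation. Txn1 encodes the cytosolic thioredoxin, a small protein that reduces peroxiredoxins and other disulfides and is itself reduced by thioredoxin reductase with NADPH.

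Sod3 transcripts were lower under CR in every library, and those of Sod1, Cat and Txn1 stayed close to their AL level in TPM (reads scaled by gene length and library total). The typical gene of the rows analysed moved down, by a median of -0.20 in log2(TPM + 1) over the 10630 genes tested, those that reached 1 TPM in 3 or more libraries. Dividing every library by the median of its gene-wise ratios to the mean library gave relative values, for which that median was -0.01. Rows given a false discovery rate under 0.05 by the authors were not analysed here, so the median and the scaling leave them out. On this relative scale Sod1, Cat and Txn1 were higher in every CR library than in any AL library, and Sod3 was again lower in every one. The difference of the extracellular dismutase thus had the opposite sign to that of the other 3 transcripts on both scales.

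Sod1 stood at 427, 392 and 430 TPM in AL2, AL3 and AL4, and at 425, 452, 487 and 481 TPM in CR1 to CR4. The diets overlapped, since CR1 lay below AL2 and AL4, and the means were 416 ± 21.2 TPM (SD, n = 3) and 461 ± 28.6 TPM (SD, n = 4). In relative TPM, Sod1 was at 402, 336 and 403 in AL and at 460, 483, 509 and 505 in CR, with AL3 lowest and no overlap. The difference CR minus AL was 0.15 ± 0.07 (SE) in log2(TPM + 1) as deposited, with a 95% confidence interval of -0.01 to 0.31, and 0.36 ± 0.08 on the relative scale, with an interval of 0.18 to 0.55.

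Sod3 stood at 336, 464 and 451 TPM in AL2, AL3 and AL4, and at 284, 275, 296 and 256 TPM in CR1 to CR4. The highest CR library, CR3, lay below the lowest AL library, AL2, and the CR mean of 278 ± 17.0 TPM (SD, n = 4) was 66.6% of the AL mean of 417 ± 70.1 TPM (SD, n = 3). Relative TPM were 317, 398 and 424 in AL and 307, 293, 310 and 269 in CR, so the gap between AL2 and CR3 narrowed but the diets did not overlap. The difference was -0.57 ± 0.12 (SE) as deposited, with an interval of -0.84 to -0.31, and -0.35 ± 0.11 on the relative scale, with an interval of -0.60 to -0.11.

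Cat stood at 1283, 1384 and 1313 TPM in AL2, AL3 and AL4, and at 1298, 1329, 1658 and 1435 TPM in CR1 to CR4. CR1 and CR2 lay among the AL libraries and CR3 stood above the rest, which gave 1327 ± 52.3 TPM (SD, n = 3) under AL and 1430.2 ± 163 TPM (SD, n = 4) under CR. In relative TPM the AL libraries drew together at 1208, 1188 and 1232, and the CR libraries stood at 1405, 1419, 1735 and 1507, all above them. The difference was 0.10 ± 0.10 (SE) as deposited, with an interval of -0.12 to 0.32, and 0.32 ± 0.09 on the relative scale, with an interval of 0.12 to 0.52. Without CR3 the difference in deposited TPM was 0.03, and the relative one was 0.25.

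Txn1 stood at 455, 489 and 496 TPM in AL2, AL3 and AL4, and at 513, 519, 488 and 482 TPM in CR1 to CR4. CR3 and CR4 lay among the AL libraries and CR1 and CR2 above them, with means of 480.2 ± 22.2 TPM (SD, n = 3) and 500.5 ± 18.1 TPM (SD, n = 4). Relative TPM were 428, 419.9 and 466 in AL and 555, 554, 510.3 and 506 in CR, with no overlap. The difference was 0.06 ± 0.06 (SE) as deposited, with an interval of -0.08 to 0.20, and 0.28 ± 0.07 on the relative scale, with an interval of 0.13 to 0.43.

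**Figure D1:**
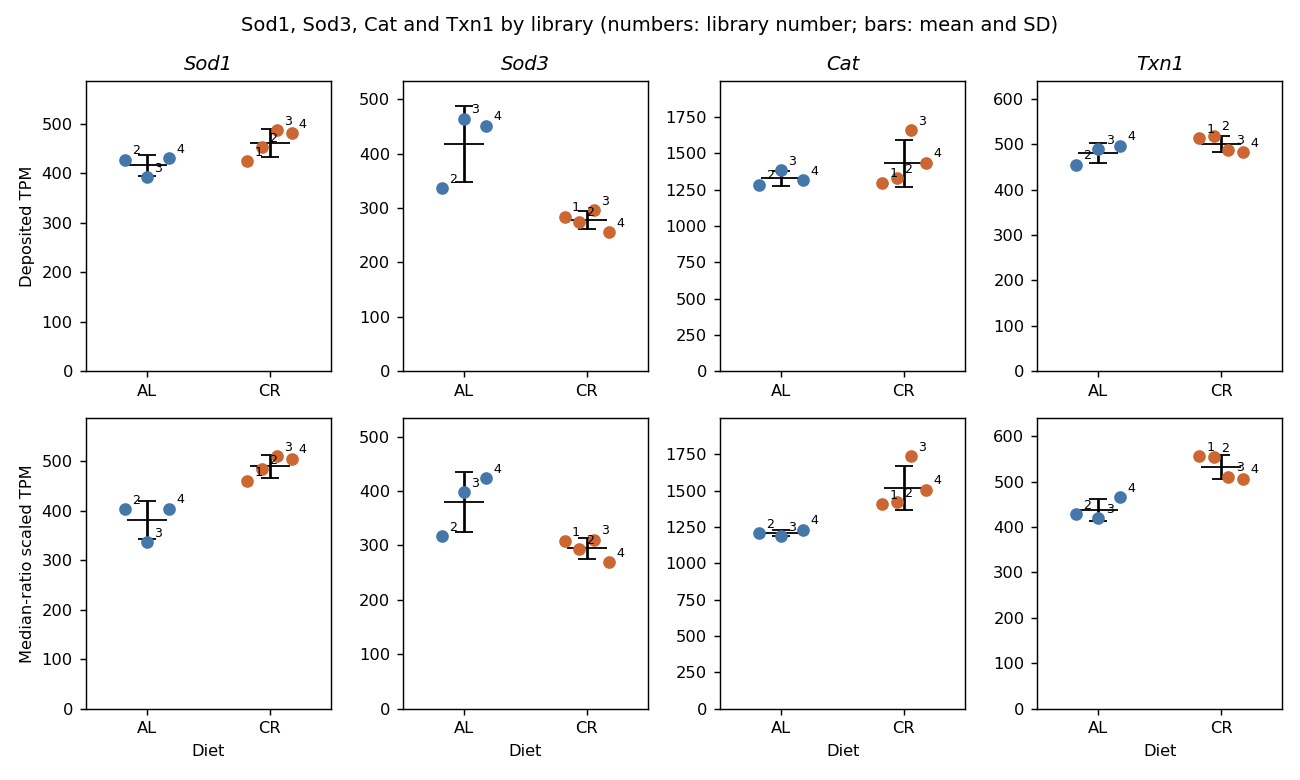
TPM of Sod1, Sod3, Cat and Txn1 in each library by diet, as deposited (top) and after median-ratio scaling (bottom). Points are libraries with their number, and bars give the mean and SD of 3 AL and 4 CR libraries. Sod3 is lower in CR in both rows, and Sod1, Cat and Txn1 separate by diet in the bottom row, where the CR means are 489, 1517 and 532 against 381, 1209 and 438 in AL.

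These gaps need the spread of all other genes beside them, because the rule that chose the genes used this contrast. On the deposited scale 29.6% of the tested genes were lower in CR with no overlap between the diets, as Sod3 was, and 2.26% were higher. On the relative scale 12.3% were lower and 13.2% higher without overlap, the second as Sod1, Cat and Txn1 were. The relative difference of Sod1 lay at percentile 89.0 of all tested genes, that of Cat at 85.8, that of Txn1 at 81.6 and that of Sod3 at 13.6. In the authors' deposited table the false discovery rate (FDR) of these genes was 0.0863 for Sod1, 0.115 for Sod3, 0.126 for Cat and 0.158 for Txn1. Rows with an FDR under 0.05 were not analysed here.

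Depth and dispersion differed between the genes. Within each library TPM times gene length was a whole multiple of a single step, the worth of 1 read, and the genes rested on 4744 to 9442 reads per library for Sod1, 2860 to 9332 for Sod3, 11028 to 18973 for Cat and 1515 to 2886 for Txn1. Counting error alone, as the square root of the reads, came to 1.87% of the Sod3 level at most and 2.57% of the Txn1 level. The coefficient of variation of Sod3 was 16.8% in AL and 6.12% in CR, that of Cat 3.94% and 11.4%, that of Sod1 5.09% and 6.20%, and that of Txn1 4.63% and 3.63%. Around the diet means the relative log2 values of Sod3 had an SD of 0.157, larger than in 77.5% of 329 genes of like level. For Txn1 that SD was 0.0753, against a median of 0.109 in 191 genes of like level.

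The 4 transcripts were among the abundant ones of the rows analysed here. By mean TPM among the tested genes they ranked 30 (Cat), 83 (Txn1), 99 (Sod1) and 144 (Sod3). The rows analysed held 42.9% (CR1) to 53.1% (AL3) of all TPM, and the rest was not ranked. Cat was the highest of them in each of the 7 libraries and Txn1 came second. Sod1 and Sod3 changed places, with Sod3 above Sod1 in AL3 and AL4 and below it in AL2 and in the CR libraries. In AL their means of 416 and 417 TPM differed by far less than the spread between mice.

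The place of Sod1 in that order rests on the length its TPM were divided by. In the GENCODE M21 annotation of build GRCm38, which is not the authors' build GRCm39, Sod1 (ENSMUSG00000022982) lies at chr16:90220754-90226329 on the plus strand and has 2 transcripts. The messenger RNA, Sod1-201, has 641 bases in 5 exons, and Sod1-202 keeps introns and spans 3970 bases, so that all exons together cover 3970 bases, 6.19 times the messenger. Of all lengths from 200 to 5999 bases, 3970 was the single length that turned the deposited Sod1 values into whole reads, within 0.05 reads, in all 7 libraries. Had the same reads been divided by the 641 bases of the messenger, Sod1 would stand at 2579 ± 131 TPM (SD, n = 3) under AL and 2856 ± 177 TPM (SD, n = 4) under CR, with the library totals left as they are. In that reckoning the order was Sod1, Cat, Txn1 and Sod3 in each of the 7 libraries. It takes every read as coming from the messenger, which the table cannot show, and it leaves the difference between the diets as it is.

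**Figure D2:**
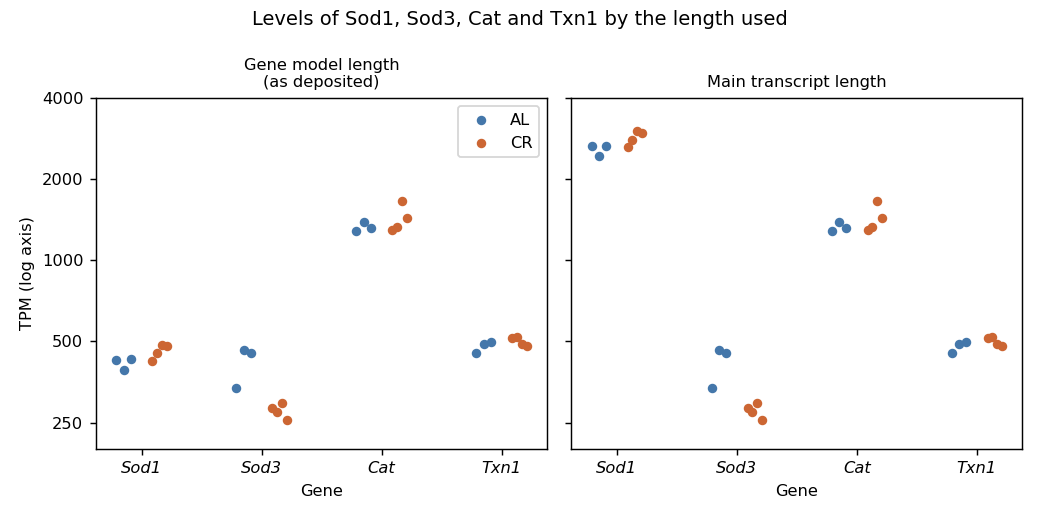
TPM on a log axis of the 4 genes in each AL and CR library, with the gene model length that fits the deposited values (left) and the length of the main transcript (right). Each point is a library. Sod1 moves from 416 to 2579 TPM in AL between the panels, and the other genes stay in place because their main transcript is as long as the model.

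For the other genes both lengths were the same. Sod3 (ENSMUSG00000072941) lies at chr5:52363791-52371418 on the plus strand, with 1 transcript of 2 exons and 3738 bases. Cat (ENSMUSG00000027187) lies at chr2:103453849-103485160 on the minus strand, with a main transcript of 13 exons and 2613 bases and a shorter coding transcript of 779 bases within it. Txn1 (ENSMUSG00000028367) lies at chr4:57943373-57956411 on the minus strand, with 5 exons and 1051 bases. Their deposited values also became whole reads in all libraries at these model lengths. The Sod1 locus overlaps Scaf4, a gene of the opposite strand, with 0 shared exonic bases, and Scaf4 averaged 28.9 TPM.

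Near-identical copies can take reads from a gene, and a search of the annotated transcripts was added after the values were seen. The processed pseudogene Gm8566 matches the Sod1 messenger at 97.8% identity over 465 bases and had 156 to 201 TPM, from 239 to 464 reads. It held 4.13% to 4.80% of the reads of Sod1 and Gm8566 together in the 7 libraries. With both summed, the CR mean of library-scaled reads was 110.5% of the AL mean, against 110.8% for Sod1 alone. The copy of Txn1, Txn-ps1, matches at 95.8% over 309 bases and had 0 to 5 reads per library. For Cat 0 such copies were found, and for Sod3 the 1 match, over 102 bases of the opposite strand of an Nkiras1 transcript, belongs to a gene with no row here.

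The promoters of Sod1, Cat and Txn1 are shown because these genes were higher under CR together, relative to the typical gene. The RefSeq promoter table of GRCm38.p6 held 3 of the 4 genes, and Sod3 was not analysed there. Each sequence gives the 250 bases before the start site, 5′ to 3′ on the gene's strand, with the motifs found in capitals and positions counted back from -1, the base before the start. These are the GC box GGGCGG bound by Sp1 and related factors, the TATA box TATAAA, the CCAAT box CCAAT and the antioxidant response element core TGACNNNGC bound by Nrf2, each on either strand.
Sod1, chr16:90220512-90220761, plus strand: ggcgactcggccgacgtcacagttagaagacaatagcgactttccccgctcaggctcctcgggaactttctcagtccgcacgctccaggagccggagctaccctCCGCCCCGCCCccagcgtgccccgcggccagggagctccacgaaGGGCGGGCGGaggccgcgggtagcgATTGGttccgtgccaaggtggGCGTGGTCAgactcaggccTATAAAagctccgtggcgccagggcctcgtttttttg
Cat, chr2:103485154-103485403, minus strand: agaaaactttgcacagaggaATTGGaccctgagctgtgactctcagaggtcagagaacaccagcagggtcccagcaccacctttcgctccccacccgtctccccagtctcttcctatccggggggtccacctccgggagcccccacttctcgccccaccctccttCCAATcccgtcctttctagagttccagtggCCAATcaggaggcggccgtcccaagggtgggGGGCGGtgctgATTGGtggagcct
Txn1, chr4:57956412-57956661, minus strand: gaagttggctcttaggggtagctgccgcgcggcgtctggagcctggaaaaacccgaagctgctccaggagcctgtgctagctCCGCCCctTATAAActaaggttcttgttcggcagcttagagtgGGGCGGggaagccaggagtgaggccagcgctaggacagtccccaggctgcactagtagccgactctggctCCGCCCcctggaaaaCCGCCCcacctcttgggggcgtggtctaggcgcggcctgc

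Sod1 held the antioxidant response element core 1 time, on the opposite strand and ending at position -48 from the start, with 4 GC boxes in 2 pairs that share bases, 1 TATA box at -37 to -32 and 1 CCAAT box. Cat held 4 CCAAT boxes, 2 on each strand, and 1 GC box at -24 to -19, with neither a TATA box nor the element core. Txn1 held 4 GC boxes and 1 TATA box, far upstream at -160 to -155, and no CCAAT box. The forkhead motif TGTTTAC was in 0 of the 3 windows. Of 32851 promoter windows of this length, 10.2% held the element core, 32.7% a GC box, 12.4% a TATA box, 33.8% a CCAAT box and 3.17% the forkhead motif. The CCAAT box was added to the search after the sequences were seen. GC content was 66.4% for Sod1, 62.0% for Cat and 64.0% for Txn1. GC content over all windows was not computed. Each of the 3 windows held a GC box, as 32.7% of all windows did, and each of the other motifs is missing from at least 1 of them.

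Ratios between transcripts of the same library do not depend on how libraries are scaled. The ratio of Sod1 to Sod3 was 1.27, 0.845 and 0.953 in AL2, AL3 and AL4, and 1.50, 1.65, 1.64 and 1.88 in CR1 to CR4. The diets did not overlap, and the means were 1.02 ± 0.221 (SD, n = 3) and 1.67 ± 0.158 (SD, n = 4). Taken with the 641 bases of the Sod1 messenger in place of the gene model, the ratio was 5.24 to 7.86 in AL and 9.27 to 11.6 in CR, so which transcript is the larger depends on that length and the separation of the diets does not. This ratio sets side by side genes chosen for their difference and is a description. The ratio of Cat to Sod1 was 3.20 ± 0.292 in AL and 3.10 ± 0.212 in CR, and that of Txn1 to Sod1 was 1.16 ± 0.0918 and 1.09 ± 0.104, both with overlap.

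Other ratios set these genes beside enzymes they work with, and the partner Gpx3 was picked after its values were seen. Gpx3 encodes the secreted glutathione peroxidase, which like catalase removes peroxide but outside cells. Its transcript stood at 2481, 2370.4 and 1879 TPM in AL and at 1264, 1588, 1902 and 1643 TPM in CR, with CR3 above AL4. The ratio of Cat to Gpx3 was 0.517, 0.584 and 0.699 in AL and 1.03, 0.837, 0.872 and 0.873 in CR, with no overlap. The ratio of Txn1 to its reductase Txnrd1 was 8.81 ± 0.553 in AL and 10.6 ± 1.49 in CR, with overlap. The ratio of Sod1 to Prdx6, a peroxiredoxin that also reduces phospholipid peroxides, was 2.10 ± 0.362 and 2.14 ± 0.354.

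**Figure D3:**
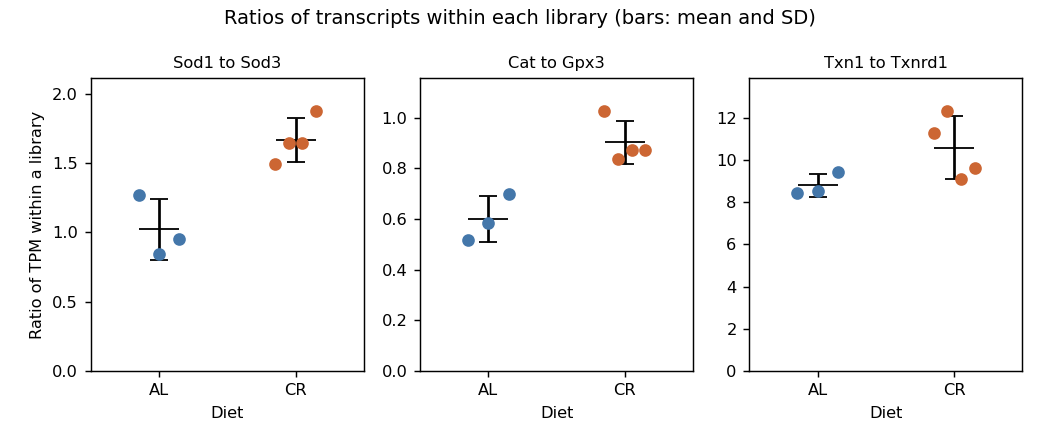
Ratios of TPM within each library for Sod1 to Sod3, Cat to Gpx3 and Txn1 to Txnrd1, by diet. Points are libraries, and bars give the mean and SD of 3 AL and 4 CR libraries. The ratios of Sod1 to Sod3 and of Cat to Gpx3 separate the diets, at 1.02 against 1.67 and 0.600 against 0.902, and that of Txn1 to Txnrd1 overlaps. Sod1, Sod3, Cat and Gpx3 were chosen with their values known, so this separation is a description with no test.

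Across the 7 libraries the relative profiles of Sod1, Cat and Txn1 lay close to each other and far from that of Sod3. The root mean square difference between centred log2 profiles was 0.0957 for Sod1 and Cat, 0.117 for Sod1 and Txn1 and 0.137 for Cat and Txn1. It was 0.335 to 0.400 between Sod3 and the others. Diet was not removed from the profiles, so these distances in part restate the differences known when the genes were chosen. Among 3143 genes of at least 20 TPM, the profiles most like Sod1 were those of Pomgnt1 (0.0263), Exoc3 (0.0388) and G3bp2 (0.0405). For Sod3 they were Lamc1 (0.0510), a laminin chain of basement membranes, Raver2 (0.0628) and B2m (0.0661), which encodes beta-2 microglobulin. Cat was nearest to Tcp1 (0.0510), Top1 (0.0519) and Ddx24 (0.0550), and Txn1 to Slc2a8 (0.0244), Snapc2 (0.0255) and Tbc1d13 (0.0294). With 7 libraries that differ in depth and diet, the distances are a description and carry no test.

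Among the rows analysed, other antioxidant genes were called lower and not higher under CR in TPM, at about the share of all genes. Of 202 other genes listed for the pathway, 103 had a row and 88 were tested. Rows with an FDR under 0.05 by the authors were not analysed here, so counts and shares of all genes leave such rows out. On the deposited scale limma, with Benjamini-Hochberg adjustment over all tested genes, called 14 of the 88 lower at an adjusted p under 0.05 and 0 higher, and at an unadjusted p under 0.05 it gave 32 lower and 0 higher, where 31.4% and 2.3% of all genes stood. Over all genes 16.4% were called, 15.9% lower and 0.517% higher, so the 14 are near the background. The authors' own FDR of these 14 was higher, from 0.0544 (Mt1) to 0.830 (Maoa). Their relative changes ran from -0.44 (Mt1) to -0.06 (Maoa). On the relative scale limma called 0 of the 88 and 0.0659% of all genes, while an unadjusted p under 0.05 was reached by 23 of the 88 that were higher and 10 that were lower. Of all genes 27.8% reached it, 15.2% higher and 12.6% lower. Without any 1 of the 7 libraries, 6 of the 14 calls were kept, those of Prdx4, Ggt5, Abcc1, Mt1, Abcd2 and Rela, and 8 were lost at least once. Without overlap between the diets were 3 higher and 28 lower as deposited, and 22 higher and 9 lower on the relative scale. Beside them stand the shares of all genes given above, 2.26% higher and 29.6% lower as deposited and 13.2% and 12.3% on the relative scale, so that the 28 are near the background. The 22 and the 23 that were higher on the relative scale are larger shares of the 88 than the 13.2% and 15.2% of all genes. That excess was not tested. The median difference of the 88 was -0.12 as deposited, against -0.20 over all genes, and 0.09 on the relative scale, against -0.01. In the following the verb fell refers to the deposited scale, with the downward shift of the typical gene in it. Counts of genes that fell or rose are of those called at an adjusted p under 0.05. Relative changes are log2 differences with their SE.

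Of the direct partners of these enzymes, Sod2, the mitochondrial dismutase, and Ccs, the copper chaperone of Sod1, had no row here, so the superoxide list holds 0 other tested genes. Gpx1, Gpx4, Prdx1, Prdx2, Prdx3 and Prdx5, which remove peroxides, also had none. Neither did Txn2, the mitochondrial thioredoxin, Txnip, the inhibitor of thioredoxin, or Pex5, the receptor that brings catalase into peroxisomes. Each count here covers the rest of its list.

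Among 4 tested genes of peroxide removal 1 fell and 0 rose, beside 15.9% and 0.517% of all genes. Prdx4, the peroxiredoxin of the endoplasmic reticulum, stood at 39.0, 45.6 and 48.2 TPM in AL and at 32.4, 32.0, 29.8 and 27.5 TPM in CR, with no overlap (limma adjusted p = 0.0160). Its relative change was -0.31 ± 0.10 (adjusted p = 0.102). Gpx3 was not called, with a deposited difference of -0.49 and an adjusted p from limma of 0.0600. Prdx6 spread over 176 to 254 TPM in AL and 193 to 242 TPM in CR, with a relative change of 0.34 ± 0.16 (limma adjusted p = 0.215).

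In the thioredoxin system 2 of 10 tested genes fell and 0 rose, beside 15.9% and 0.517% of all genes. Tmx3, a thioredoxin-related oxidoreductase of the endoplasmic reticulum, fell from 18.6 ± 2.46 TPM (SD, n = 3) to 13.1 ± 0.678 TPM (SD, n = 4) (limma adjusted p = 0.0229), and Txnrd3, a reductase for thioredoxin and glutathione, from 49.9 ± 10.3 to 33.5 ± 1.41 TPM (limma adjusted p = 0.0243). Txnrd1, which reduces the thioredoxin of the cytosol, stood at 53.9, 57.3 and 52.6 TPM in AL and at 45.5, 42.1, 53.6 and 50.01 TPM in CR. It was not called (limma adjusted p = 0.172), and its difference was -0.19 as deposited and 0.02 on the relative scale, so its direction depends on the scale. The list's median was -0.18 as deposited and 0.03 on the relative scale.

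Glutathione genes gave 1 that fell among 14 tested and 0 that rose, beside 15.9% and 0.517% of all genes. Ggt5, which cleaves extracellular glutathione and its conjugates, fell from 23.5 ± 1.12 TPM (SD, n = 3) to 16.3 ± 0.991 TPM (SD, n = 4), by limma with an adjusted p of 0.0147. At an unadjusted p under 0.05 on the relative scale 7 of the 14 were higher and 1 lower, where 15.2% and 12.6% of all genes stood, and the median was 0.19. None of the 14 passed the adjusted test on that scale. In methionine sulfoxide repair 1 of 2 tested genes fell, Msrb3, from 126 ± 12.5 to 94.3 ± 8.62 TPM (limma adjusted p = 0.0230).

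The Nrf2 axis controls many antioxidant genes: the factor Nfe2l2 (Nrf2) binds the antioxidant response element, and Keap1 directs its degradation. Nfe2l2 stood at 102 ± 11.0 TPM (SD, n = 3) under AL and 79.8 ± 11.2 TPM (SD, n = 4) under CR and was not called (limma adjusted p = 0.0872). Keap1 was at 54.1 ± 4.25 and 52.8 ± 1.45 TPM, with a difference of -0.03 as deposited and 0.18 on the relative scale, and so changed its direction with the scale. Of the 11 tested genes of this list 1 fell, beside 15.9% of all genes. It was Abcc1, an exporter of glutathione conjugates, from 25.4 ± 1.95 to 16.9 ± 1.18 TPM (limma adjusted p = 0.0147). The list's median was -0.07 as deposited and 0.14 on the relative scale.

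Copper reaches Sod1 and Sod3 by separate routes, and 2 of 8 tested genes of copper and iron handling fell, beside 15.9% of all genes. Atp7a, the pump that loads copper onto secreted enzymes such as Sod3 in the Golgi, stood at 5.13, 5.90 and 4.64 TPM in AL and at 3.81, 3.13, 3.49 and 3.52 TPM in CR, with no overlap (limma adjusted p = 0.0473). It rests on 92 to 224 reads per library, and the call was lost without any 1 of the 7 libraries. Mt1, a metallothionein that binds zinc and copper, stood at 382, 352 and 498 TPM in AL and at 256, 302, 237 and 237 TPM in CR (limma adjusted p = 0.0195). Their relative changes were -0.29 ± 0.12 and -0.44 ± 0.15.

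Among the sources of superoxide and peroxide 2 of 11 tested genes fell, beside 15.9% of all genes. Aoc3, an amine oxidase on the surface of fat and smooth muscle cells that releases hydrogen peroxide, stood at 976, 1118 and 1407 TPM in AL and at 798, 738, 785 and 749 TPM in CR (limma adjusted p = 0.0189). Maoa, a monoamine oxidase of the outer mitochondrial membrane, fell from 31.1 ± 2.77 to 25.5 ± 0.805 TPM (limma adjusted p = 0.0485) and had a relative change of -0.06 ± 0.07. Of 5 tested genes of NADPH supply 1 fell, Idh2, the mitochondrial isocitrate dehydrogenase, from 268 ± 36.3 to 195 ± 13.7 TPM (limma adjusted p = 0.0224). Nnt, the transhydrogenase that C57BL/6J mice are known to carry in a deleted form, was between 0.0951 and 0.305 TPM in the 7 libraries and below the filter.

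Peroxisome assembly genes, which the organelle of catalase needs, gave 1 that fell among 14 tested, beside 15.9% of all genes. It was Abcd2, a peroxisomal transporter of very long-chain acyl-CoA, from 463 ± 54.5 TPM (SD, n = 3) to 335 ± 14.3 TPM (SD, n = 4), by limma with an adjusted p of 0.0170. The list's median was -0.08 as deposited and 0.14 on the relative scale, where 3 of the 14 were higher without overlap and 1 was lower. Of all genes 13.2% were higher and 12.3% lower in this way. Of 9 tested transcription factors of antioxidant genes 2 fell. Rela, a subunit of NF-kappaB, went from 70.4 ± 2.89 to 54.0 ± 2.32 TPM (limma adjusted p = 0.0147) and Jun, a subunit of AP-1, from 78.7 ± 8.70 to 56.4 ± 8.21 TPM (limma adjusted p = 0.0330).

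**Figure D4:**
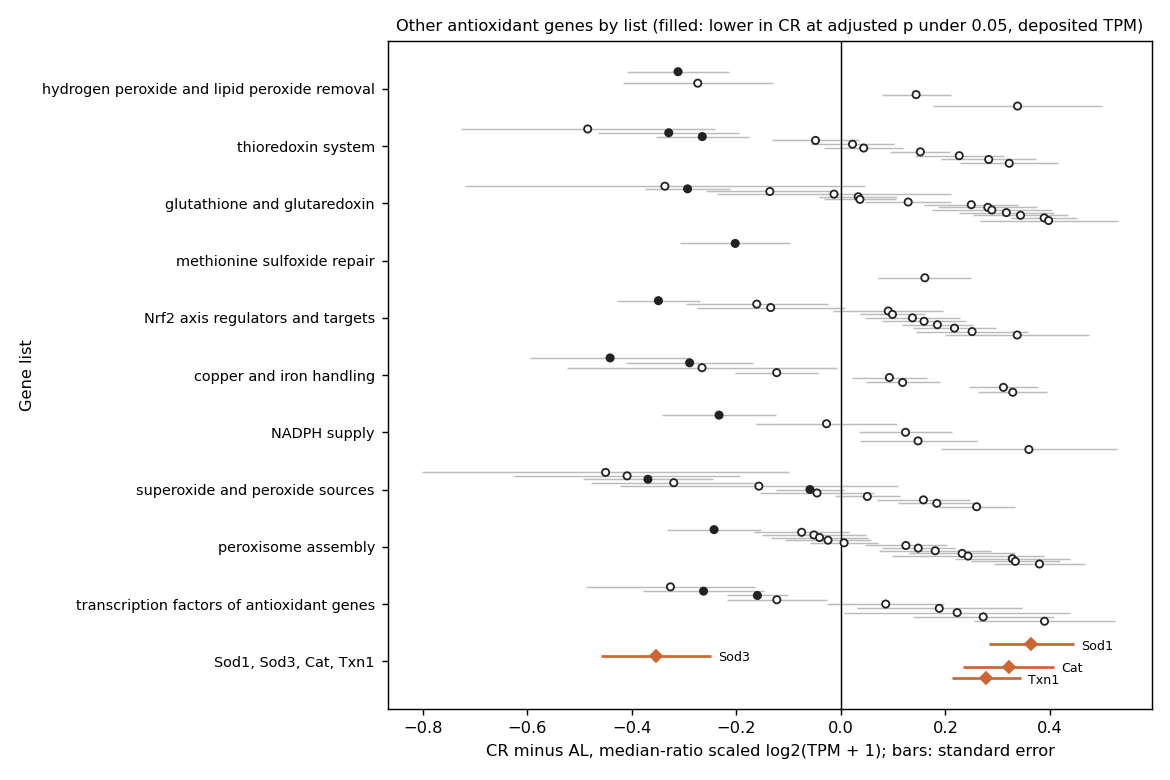
Relative difference CR minus AL in log2(TPM + 1) of the 88 other tested antioxidant genes by list, with Sod1, Sod3, Cat and Txn1 at the bottom. Points are genes, bars give the SE, and filled points mark the 14 genes called lower in deposited TPM by limma at an adjusted p under 0.05. Each list spans both sides of 0, and Sod3 (-0.35) lies among the filled points while Sod1 (0.36), Cat (0.32) and Txn1 (0.28) lie at the right.

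Markers of fat cells and vessels summed to less under CR in deposited TPM, those of the other cell types with a row overlapped between the diets, and their part in the values above was not tested. The 6 adipocyte markers with a row, of 12 listed, summed to 89212 to 105167 TPM in AL and 70028 to 80818 TPM in CR. Of these 6, limma called 1 lower on the deposited scale, near the 15.9% of all genes, and 0 on the relative scale. Their sums in relative TPM overlapped, at 84029 to 93528 in AL and 73516 to 84572 in CR. Markers of vessels, on whose walls the Sod3 protein is bound, also summed to less: 9 of 13 endothelial markers to 479 to 554 TPM in AL and 358 to 443 TPM in CR, and 5 of 12 smooth muscle and pericyte markers to 177 to 190 TPM and 121 to 153 TPM. By limma 4 of 8 and 2 of 5 tested were called lower on the deposited scale, against 15.9% of all genes, and 0 of either list on the relative scale. In relative TPM both sums overlapped between the diets, at 449.7 to 482 and 374 to 479 for the endothelial markers and at 153 to 179 and 127 to 163 for the others. Erythroid cells are rich in Sod1 and catalase, and 7 of 12 of their markers summed to 83.3 to 97.3 TPM in AL and to 91.4, 77.8, 127 and 124 TPM in CR1 to CR4, highest in CR3 and CR4. The macrophage markers with a row, 2 of 14, summed to at most 5.38 TPM, and of 12 fibroblast markers 0 had a row. Nerve and Schwann cell markers, 5 of 10, summed to 278 to 535 TPM in AL and 148 to 298 TPM in CR, and lymphocyte markers, 11 of 14, to 20.2 to 30.5 TPM and 14.1 to 43.1 TPM. Thermogenic markers, 2 of 8, summed to 5.97 to 14.3 TPM and 9.64 to 16.8 TPM. The mammary markers, 11 of 12, stayed at or below 12.3 TPM with Csn2 at 0, and Myh1, the 1 of 12 skeletal muscle markers with a row, was at 64.2 TPM in AL2 and at most 9.80 TPM elsewhere. The rows analysed here held 49.0% to 53.1% of all TPM in AL and 42.9% to 45.0% in CR, the direction of the shift of the typical gene.

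Across the 20 settings tried, from the pseudocount to the scaling and the libraries left out, the sign of each difference was kept. The settings include a change to the other scale, so the end of each range nearer that scale is the value on it. Starting from deposited TPM, Sod3 ranged from -0.72, without AL2, to -0.35, its relative value. Starting from relative TPM, it ranged from -0.57, its deposited value, to -0.27. With only libraries left out, Sod3 stayed at -0.72 to -0.49 in deposited TPM and at -0.48 to -0.27 on the relative scale. From the same starting scales, Sod1 ranged from 0.10 to 0.36 and from 0.15 to 0.41, Cat from 0.03 to 0.32 and from 0.10 to 0.36, and Txn1 from 0.02 to 0.28 and from 0.06 to 0.32. For Cat and Txn1 the size therefore depended on the scale more than on any single library.

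**Figure D5:**
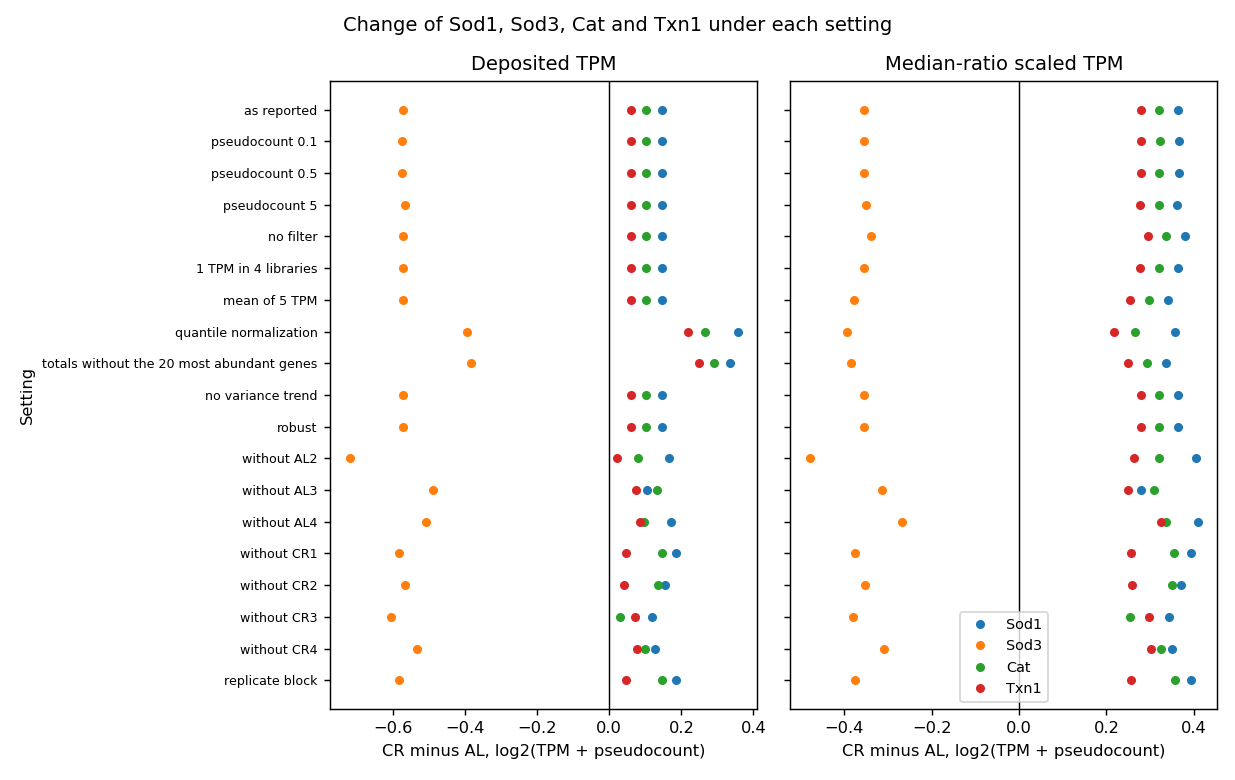
Difference CR minus AL on the log2 scale for Sod1, Sod3, Cat and Txn1 under each processing setting, starting from deposited TPM (left) or median-ratio scaled TPM (right). Each point is a gene under 1 setting. Sod3 stays left of 0 and the others right of 0 in each setting shown, and quantile normalization and totals without the 20 most abundant genes move the deposited values towards the relative ones.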

How the data were processed

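RNA of subcutaneous white adipose tissue was sequenced as paired-end libraries. Per the labels' protocols, RNA was either depleted of ribosomal RNA or purified by poly-A, with a directional kit. Build GRCm39 and the tools edgeR 3.38.4, featureCounts 2.0.3, SAMtools 1.17, STAR 2.7.10b and FastQC 0.12.1 appear without roles in the submitters' processing notes. Annotation and strand setting were not given in the sources used here. The authors deposited TPM per Ensembl gene and library, and a p-value adjusted as FDR. Columns were assigned to diets by name, since their numbers differ from those of the mice in the labels.

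The 10630 genes that reached 1 TPM in 3 or more libraries were fitted as log2(TPM + 1) with limma 3.58.1 in R 4.3.3, with diet as the only term, moderated variances with a trend and two-sided p-values adjusted by Benjamini-Hochberg. The added 1 TPM understates changes of low genes. A second fit followed median-ratio scaling. Reads were recovered as TPM times GENCODE M21 length over a single step per library, the most frequent nonzero value of that product. Of 22041 rows judged, 94.55% were whole within 0.05 reads in each library. Rows with a length held 4147828 to 8897778 reads per library. Near copies came from BLAST 2.17.0 (megablast, at least 90% identity over 100 bases), and tables and plots from Python 3.11.15 with numpy 2.4.6, pandas 2.3.3 and matplotlib 3.10.9. The fits were also run on simulated reads with set changes in some genes. No shift of the typical gene between the diets was set there, so that run cannot judge the choice of scale.

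The genes and gene lists were chosen with earlier results of these data known. Named genes were those called in either fit in each list (at most 4, or the 2 most abundant where 0 were called) and fixed partners, with the 3 genes of at least 20 TPM most like each profile. Gpx3, Nnt, Scaf4 and the near copies were named after their values were seen. Alternatives were other pseudocounts, filters and scalings, no variance trend, robust moderation, each library left out, and a replicate block.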

Additional observations from a re-analysis of the deposited data

Results flagged for a closer look

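Among 23 genes whose 4 CR libraries were searched for a value far from the others, 3 were found, all in CR3. Ggt5 stood at 14.8 TPM in CR3, below the other CR libraries. Idh2 stood there at 215.5 TPM and Msrb3 at 107 TPM, both above the other CR libraries. In each case the gap to the nearest library, 0.901, 0.875 and 0.910 of the whole range of CR, was above the 95% critical value of Dixon's test. Chance gives such a gap in about 1 of 20 groups. CR3 also held the highest Cat value, 1658 TPM, which did not meet this criterion. AL, with 3 libraries, was not searched.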

How the results depend on the processing

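In deposited TPM limma called 1748 genes, and 742 with no filter, 7 after median-ratio scaling, 7 after quantile normalization, 5 with totals without the 20 most abundant genes, and 603 (without AL3) to 1440.0 with 1 library left out (723, 660, 1001 and 1095 without CR1 to CR4). The 14 antioxidant genes became 6 with no filter, 0 under each of these scalings and 6 to 15 with 1 library left out (9 without CR1 or CR3, 6 without CR2). On the relative scale the 7 calls became 3 and 4 at pseudocounts of 0.1 and 5, 2 with no filter, 0 at a mean of 5 TPM, 1748 in deposited TPM and 2 to 58 with 1 library left out (2 without CR1, 3 without AL3, 58 without AL4), and the 0 antioxidant calls became 14 in deposited TPM and 0 to 1 with 1 library left out (without AL4). With a replicate block on the column numbers, 0 genes and 0 antioxidant genes were called on either scale. Same-numbered libraries deviated from their diet means with correlations of -0.04, -0.03 and -0.08, against -0.06 to 0.07 for libraries of different number. These values show no pairing by number but cannot exclude it, and the labels state none. The cause of these shifts was not tested, except that leaving out a library or adding a block leaves fewer degrees of freedom.

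From deposited TPM, Sod1, Sod3, Cat and Txn1 moved to 0.36, -0.35, 0.32 and 0.28 after median-ratio scaling, 0.36, -0.39, 0.27 and 0.22 after quantile normalization and 0.34, -0.38, 0.29 and 0.25 with totals without the 20 most abundant genes. The relative values moved to 0.15, -0.57, 0.10 and 0.060 in deposited TPM. With 1 library left out, deposited differences were 0.10 to 0.19 for Sod1, -0.72 to -0.49 for Sod3, 0.03 to 0.15 for Cat and 0.02 to 0.08 for Txn1, and relative ones 0.28 to 0.41, -0.48 to -0.27, 0.25 to 0.36 and 0.25 to 0.32. Genes that were not called changed sign. Keap1, at -0.03 in deposited TPM, was at 0.18, 0.13 and 0.16 under the same 3 scalings and -0.096 to 0.0074 with 1 library left out (positive without AL4), and its relative value of 0.18 was -0.030 in deposited TPM. Txnrd1, at 0.02 on the relative scale, was at -0.00055 with a mean of 5 TPM, -0.19 in deposited TPM, -0.033 after quantile normalization, -0.0067 with totals without the 20 most abundant genes and -0.028 (without CR3) to 0.078 with 1 library left out, and its deposited value became 0.022 after median-ratio scaling. By limma in deposited TPM, calls were lost without CR2 for Aoc3 (adjusted p = 0.0515), without CR1 or CR2 for Idh2 (up to 0.0578), without CR1, CR2 or CR3 for Txnrd3 (up to 0.0593), without AL2, AL3, CR2 or CR3 for Tmx3 (up to 0.0603), without AL2, CR1, CR2 or CR4 for Msrb3 (up to 0.0609), without AL2, AL3, CR2, CR3 or CR4 for Jun (up to 0.0981), without any library but AL2 for Maoa (up to 0.126) and without each library for Atp7a (up to 0.126).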
